A study of Mus musculus with 10 samples.

Results

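Cytotoxic and T lymphocyte genes were followed in colon tumors with and without Wntless (Wls), the membrane protein that Wnt ligands need to leave the cell. The set is 10 genes chosen by name: the CD3 chains Cd3e, Cd3g and Cd3d, the coreceptor genes Cd4, Cd8a and Cd8b1, and the cytotoxic granule genes Gzma, Gzmb, Prf1 and Nkg7. Of these 10, 8 had a row among the 16875 gene names of the table. Cd8b1 and Prf1 (perforin, the pore-forming protein of the granule) had none, also not under 4 and 3 older names, and were not analysed here.

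Tumors had been induced in C57BL/6 mice, aged 6 to 10 weeks at the start, with the carcinogen azoxymethane (AOM) and 3 cycles of 2% dextran sulfate sodium (DSS), which inflames the colon. They were collected 120 days after AOM, macrodissected and frozen. The 5 control tumors came from mice with the genotype Wls flox/flox. The 5 Villin-WlscKO tumors came from Villin-Cre ERT2, Wls flox/flox mice, in which tamoxifen (5 injections of 80 mg/kg, begun 30 days before collection) activates Cre in the epithelium and not in lymphocytes. Controls are described as untreated with tamoxifen unless stated otherwise. How many mice the tumors came from is not given, so n counts tumors and the p-values measure the spread between tumors.

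T lymphocytes recognise antigen with a receptor whose chains reach the surface only together with the CD3 chains, which carry the signal inward. CD4 marks helper and regulatory T cells and is also found on some macrophages and dendritic cells. CD8 is found on cytotoxic T cells and also on some other cells, and of its genes only Cd8a was measured here. Cytotoxic T cells and natural killer cells kill targets by releasing granules with perforin and granzymes. In the intestine many T cells lie within the epithelium itself. In whole tumors, a change in the number of cells of a type and a change in RNA per cell cannot be told apart.

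In Villin-WlscKO tumors 7 of the 8 measured genes were higher: Cd3e, Cd3g, Cd3d, Cd8a, Gzma, Gzmb and Nkg7. Cd4 did not pass the test. In the same test (limma on log2(FPKM + 1), adjusted p under 0.05 over all 16757 genes tested) 6.12% of all genes were higher and 4.75% lower, and 0 of the 8 genes were lower. All 5 Villin-WlscKO values lay above all 5 control values for 4 of the 8 genes (Cd3e, Cd3g, Cd8a and Nkg7), against 5.33% of all genes. The median change of the 8 genes was 1.10 on the log2(FPKM + 1) scale, beside 0.0073 for all genes tested. These genes are low: 4 of them (Cd3e, Cd3d, Cd8a and Nkg7) had a control mean under 0.5 FPKM, the lowest mean over all tumors that was tested, and were tested only through their level in Villin-WlscKO tumors. No value of the 8 genes was exactly 0. FPKM are fragments scaled to transcript length and to the mapped reads of the library, and the sequencing depth behind them is unknown.

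**Figure D1:**
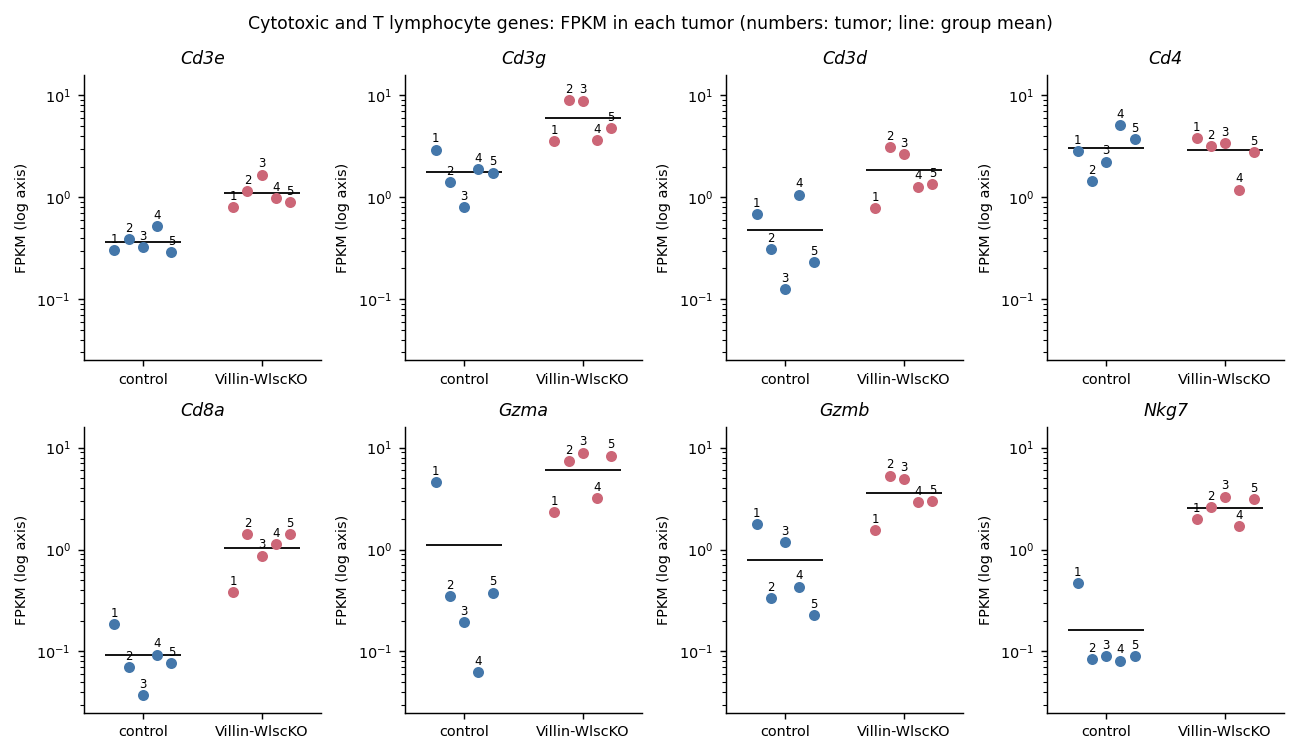
FPKM of the 8 genes on a logarithmic axis in 5 control tumors (blue) and 5 Villin-WlscKO tumors (red), each point 1 tumor with its number and each line a group mean. For Cd3e, Cd3g, Cd8a and Nkg7 the groups do not overlap, for Cd3d, Gzma and Gzmb they overlap, and the 10 values of Cd4 are mixed.

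The groups differed in more than genotype. Wls was at 61.3 to 79.9 FPKM in control tumors and at 2.03 to 11.8 FPKM in Villin-WlscKO tumors, of which tumors 2 and 3 had the higher values (11.6 and 11.8 FPKM). Xist, the RNA of the inactive X chromosome, was at 439 to 701 FPKM in Villin-WlscKO tumors and at most 0.420 FPKM in control tumors, and the Y-linked Eif2s3y did not exceed 0.138 FPKM in Villin-WlscKO tumors but reached 30.4 to 46.6 FPKM in controls. Genotype, tamoxifen and sex cannot be told apart in these 10 tumors. None of the 8 genes lies on a sex chromosome, and whether sex alters their levels was not tested. Villin-WlscKO tumors 2 and 3 also stood apart by Krt5, a keratin of squamous epithelium, with 469.5 and 669 FPKM against at most 0.315 FPKM in the other 8 tumors. Where calls were lost without these tumors, the values or the counts without them are given below.

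Promoters of 5 of the genes are shown because these genes carry the 3 main contrasts: Cd3e for the T cell receptor complex, Cd8a for the coreceptors, and Gzma, Gzmb and Nkg7 for the granule. The sequences are those of RefSeq (GRCm38.p6), 250 bases before and 50 bases from the RefSeq start of the gene on, 5′ to 3′ on the strand of the gene. RefSeq and GENCODE M21 starts can differ. The Gzmb window lies wholly before the GENCODE start of Gzmb at 56262260 (minus strand). Capitals mark, on either strand, the letters TGTGGT (a core bound by RUNX factors), AGGAAG (ETS factors), TCACAC (T-box factors) and TTCNNNGAA (the interferon-gamma activated site, GAS). The windows are chr9:45009562-45009861, minus strand for Cd3e, chr6:71373177-71373476, plus strand for Cd8a, chr13:113100932-113101231, minus strand for Gzma, chr14:56262285-56262584, minus strand for Gzmb and chr7:43436888-43437187, plus strand for Nkg7.
Cd3e: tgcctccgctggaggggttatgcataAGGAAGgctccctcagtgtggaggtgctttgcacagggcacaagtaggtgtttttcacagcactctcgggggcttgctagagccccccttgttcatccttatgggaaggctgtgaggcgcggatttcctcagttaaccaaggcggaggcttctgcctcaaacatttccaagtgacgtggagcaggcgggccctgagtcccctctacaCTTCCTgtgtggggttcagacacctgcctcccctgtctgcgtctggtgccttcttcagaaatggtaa
Cd8a: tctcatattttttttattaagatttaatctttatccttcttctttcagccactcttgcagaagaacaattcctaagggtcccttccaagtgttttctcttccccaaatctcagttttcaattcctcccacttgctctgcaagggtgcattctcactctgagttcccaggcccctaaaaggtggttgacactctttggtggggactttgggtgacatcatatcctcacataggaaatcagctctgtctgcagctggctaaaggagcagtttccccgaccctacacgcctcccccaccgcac
Gzma: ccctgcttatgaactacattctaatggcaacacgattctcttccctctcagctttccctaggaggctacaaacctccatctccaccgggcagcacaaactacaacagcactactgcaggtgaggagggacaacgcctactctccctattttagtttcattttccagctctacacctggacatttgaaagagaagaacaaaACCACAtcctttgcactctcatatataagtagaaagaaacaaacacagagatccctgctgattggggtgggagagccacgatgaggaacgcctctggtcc
Gzmb: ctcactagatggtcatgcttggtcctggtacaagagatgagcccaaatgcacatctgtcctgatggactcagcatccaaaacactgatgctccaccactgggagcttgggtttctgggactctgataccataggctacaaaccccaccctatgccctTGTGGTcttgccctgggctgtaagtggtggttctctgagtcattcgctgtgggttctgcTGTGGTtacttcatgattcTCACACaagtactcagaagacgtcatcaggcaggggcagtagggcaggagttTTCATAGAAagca
Nkg7: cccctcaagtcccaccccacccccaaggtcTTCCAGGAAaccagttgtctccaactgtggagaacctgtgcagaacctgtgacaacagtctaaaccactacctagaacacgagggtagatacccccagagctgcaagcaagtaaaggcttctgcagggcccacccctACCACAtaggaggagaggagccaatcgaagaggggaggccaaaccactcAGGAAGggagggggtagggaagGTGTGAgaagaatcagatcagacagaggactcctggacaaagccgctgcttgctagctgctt
Among the printed windows that of Nkg7 held all 4 motifs and that of Cd8a none. The window of Cd3g, which is not printed, also held none. Among the 7 measured genes with a promoter in the table (all but Cd4), the RUNX letters were found in 3, the ETS letters in 3, the T-box letters in 2 and the GAS letters in 3. The shares among all 32851 promoters of this length were 16.8%, 35.4%, 14.5% and 8.30%. A match is a description of the letters and not a binding site. In the windows printed above no motif overlapped another.

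The CD3 chain genes lie together on chromosome 9 (GRCm38, GENCODE M21): Cd3g from 44969572 to 44980431, Cd3d from 44981786 to 44987339 and Cd3e from 44998740 to 45009627. Cd3g and Cd3d are read away from each other and are separated by 1354 bases. Cd3e overlaps 2 other annotated genes, which have no row in the table, and it is not stated whether quantification used strand. All 3 chains were higher in Villin-WlscKO tumors.

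Cd3e encodes the epsilon chain, part of both CD3 dimers of the receptor. Its FPKM in control tumors 1 to 5 were 0.303, 0.388, 0.323, 0.517 and 0.291, and in Villin-WlscKO tumors 1 to 5 they were 0.802, 1.15, 1.67, 0.972 and 0.895. The lowest Villin-WlscKO value, of tumor 1, lay above the highest control value, of tumor 4. Mean FPKM rose from 0.364 ± 0.0935 (SD, n = 5) to 1.10 ± 0.342 (SD, n = 5), 3.01-fold. The log2(FPKM + 1) change was 0.61 (standard error 0.13, limma adjusted p = 0.0138). Cd3e passed the threshold under each of the 21 alternative fits that tested it, and without Villin-WlscKO tumors 2 and 3 its change was 0.47 (limma adjusted p = 0.0392).

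Cd3g, the gamma chain, had the highest FPKM of the 3 in each of the 10 tumors. In control tumors 1 to 5 it was at 2.93, 1.41, 0.800, 1.88 and 1.74 FPKM, and in Villin-WlscKO tumors 1 to 5 at 3.53, 8.93, 8.87, 3.66 and 4.80 FPKM. The groups did not overlap, and tumors 2 and 3 had nearly equal values far above the other 3 Villin-WlscKO tumors. The mean rose 3.40-fold, from 1.75 ± 0.778 to 5.96 ± 2.73 FPKM (SD, n = 5 each). On the log2(FPKM + 1) scale the change was 1.30 (standard error 0.28, limma adjusted p = 0.0159). With Villin-WlscKO tumors 2 and 3 left out it was 0.90 and no longer past the threshold (limma adjusted p = 0.0612), although with any single tumor left out it passed.

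Cd3d, the delta chain, showed the same order with more overlap. Control tumors 1 to 5 had 0.677, 0.312, 0.126, 1.06 and 0.231 FPKM, and Villin-WlscKO tumors 1 to 5 had 0.783, 3.11, 2.65, 1.27 and 1.34 FPKM. Control tumor 4 lay above Villin-WlscKO tumor 1, and the other 4 tumors of each group were separated. The change of 0.90 (standard error 0.26) was just past the threshold (limma adjusted p = 0.0494). It passed without control tumor 4 or Villin-WlscKO tumor 1 but not without any 1 of the other 8 tumors (highest limma adjusted p = 0.113, without Villin-WlscKO tumor 3). Without both Villin-WlscKO tumors 2 and 3 it fell to 0.55 (limma adjusted p = 0.179).

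Of the coreceptor genes Cd8a passed the test and Cd4 did not. Cd4, on chromosome 6 from 124864692 to 124888221, was at 2.86, 1.43, 2.23, 5.09 and 3.75 FPKM in control tumors 1 to 5 and at 3.81, 3.18, 3.43, 1.19 and 2.79 FPKM in Villin-WlscKO tumors 1 to 5. The highest and the lowest of the 10 values were those of control tumor 4 and Villin-WlscKO tumor 4. The means were 3.07 ± 1.41 and 2.88 ± 1.02 FPKM (SD, n = 5 each). The log2(FPKM + 1) change of Cd4 was -0.05 with a 95% interval from -0.66 to 0.56 (limma adjusted p = 0.940), and its sign depended on the scaling and on single tumors, being 0.02 with equal FPKM sums, 0.11 without control tumor 4, 0.02 without control tumor 5 and 0.15 without Villin-WlscKO tumor 4.

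Cd8a, on chromosome 6 from 71373427 to 71379173, encodes the alpha chain of CD8 and was near zero in control tumors. Its FPKM there were 0.184, 0.0701, 0.0373, 0.0929 and 0.0773, and in Villin-WlscKO tumors 1 to 5 they were 0.384, 1.41, 0.874, 1.14 and 1.41. Every Villin-WlscKO tumor lay above every control tumor, and tumors 2 and 5 had the highest values. The mean rose from 0.0923 ± 0.0551 to 1.04 ± 0.430 FPKM (SD, n = 5 each), 11.3-fold. The log2(FPKM + 1) change, which understates the change of such low genes, was 0.88 (standard error 0.16, limma adjusted p = 0.00673). Cd8a passed the threshold under each of the 21 alternative fits that tested it, without Villin-WlscKO tumors 2 and 3 with a change of 0.82 (limma adjusted p = 0.0333).

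FPKM of Cd8a divided by FPKM of Cd4 was between 0.0167 and 0.0643 in control tumors and between 0.101 and 0.959 in Villin-WlscKO tumors. The groups did not overlap, and the highest ratio, in Villin-WlscKO tumor 4, was in the tumor with the lowest Cd4. A test of whether the 2 genes changed differently, chosen after their values had been seen, gave a difference in change of 0.92 on the log2(FPKM + 1) scale (two-sided exact permutation test, p = 0.0556), which is not past 0.05.

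On the log2(FPKM + 1) scale the granule genes had the largest changes of the 8 genes, whereas by the ratio of mean FPKM Cd8a (11.3-fold) was above Gzma (5.39-fold) and Gzmb (4.46-fold) and below Nkg7 (15.6-fold). Granzyme A and granzyme B are the proteases that granules deliver into target cells, and Nkg7 encodes a membrane protein of cytotoxic granules.

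Gzma, on chromosome 13 from 113093825 to 113100981, was at 4.61, 0.352, 0.194, 0.0622 and 0.377 FPKM in control tumors 1 to 5. Villin-WlscKO tumors 1 to 5 had 2.34, 7.33, 8.94, 3.21 and 8.34 FPKM. Control tumor 1 lay above Villin-WlscKO tumors 1 and 4, and the other 4 control tumors lay below all Villin-WlscKO tumors. Because of that tumor the fold depended on the summary: the means (1.12 ± 1.96 and 6.03 ± 3.04 FPKM, SD, n = 5 each) differed 5.39-fold and the medians 20.8-fold. The change was 1.94 (standard error 0.48, limma adjusted p = 0.0291). Without control tumor 1 it was 2.37 (limma adjusted p = 0.00276). It missed the threshold without any 1 of control tumors 2 to 5 or of Villin-WlscKO tumors 2, 3 and 5 (highest limma adjusted p = 0.0722), and without both Villin-WlscKO tumors 2 and 3, where it was 1.60 (limma adjusted p = 0.146).

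Gzmb, on chromosome 14 from 56258838 to 56262260, was at 1.79, 0.335, 1.19, 0.432 and 0.228 FPKM in control tumors 1 to 5 and at 1.55, 5.31, 4.97, 2.91 and 3.01 FPKM in Villin-WlscKO tumors 1 to 5. Only control tumor 1 and Villin-WlscKO tumor 1 crossed over. The mean rose 4.46-fold, from 0.795 ± 0.673 to 3.55 ± 1.57 FPKM (SD, n = 5 each), and the log2(FPKM + 1) change was 1.34 (standard error 0.30, limma adjusted p = 0.0178). It passed with any single tumor left out, and without both Villin-WlscKO tumors 2 and 3 it was 1.00 (limma adjusted p = 0.0935).

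Nkg7, on chromosome 7 from 43437073 to 43438249, had the smallest p-value of the 8 genes. Its FPKM in control tumors 1 to 5 were 0.467, 0.0845, 0.0898, 0.0811 and 0.0894, and in Villin-WlscKO tumors 1 to 5 they were 1.99, 2.60, 3.31, 1.68 and 3.13. Control tumor 1 was again the highest control, but below all Villin-WlscKO tumors. The mean rose from 0.162 ± 0.170 to 2.54 ± 0.704 FPKM (SD, n = 5 each), 15.6-fold. The log2(FPKM + 1) change was 1.59 (standard error 0.16, limma adjusted p = 0.000201). It passed the threshold under each of 22 alternative fits and was 1.48 without Villin-WlscKO tumors 2 and 3 (limma adjusted p = 0.00294).

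**Figure D2:**
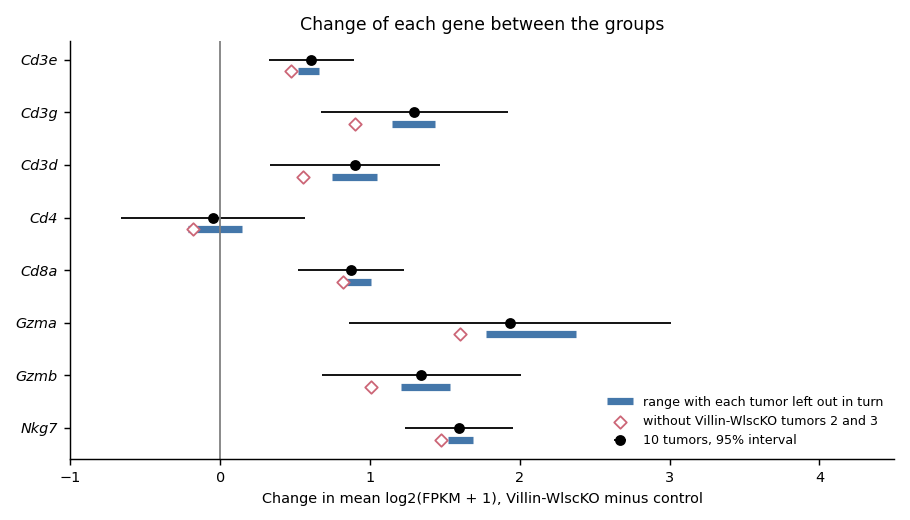
Change in mean log2(FPKM + 1), Villin-WlscKO minus control, for the 8 genes, with the 95% interval of limma over 10 tumors (black), the range with each tumor left out in turn (blue) and the value without Villin-WlscKO tumors 2 and 3 (red diamond). The interval of Cd4 spans 0 and its left-out range changes sign, whereas the other 7 genes stay above 0 in all 3 displays.

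With labels exchanged in every possible way, a two-sided exact permutation test without adjustment gave p = 0.00794, the smallest it can give, for Cd3e, Cd3g, Cd8a and Nkg7. The same exact test gave p = 0.0159 for Cd3d and Gzmb, p = 0.0238 for Gzma and p = 0.881 for Cd4.

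Single tumors had a recurring place in these values. Villin-WlscKO tumors 2 and 3 held the 2 highest values of 4 genes (Cd3e, Cd3g, Cd3d and Gzmb), whereas the highest values of Cd8a, Gzma and Nkg7 included Villin-WlscKO tumor 5. Villin-WlscKO tumor 1 was the lowest of its group for 6 of the 8 genes, all but Cd4 and Nkg7. Control tumor 1 was the highest control for 5 (Cd3g, Cd8a, Gzma, Gzmb and Nkg7). After each group's mean had been removed, the log2(FPKM + 1) values of all 21 pairs of the 7 genes other than Cd4 correlated above 0 over the 10 tumors, with r from 0.127 (Cd3e and Cd8a) to 0.892 (Gzma and Nkg7) and a median of 0.537. Cd4 had r between -0.227, with Cd8a, and 0.396, with Cd3g. These values share the libraries and their tissue content and are given as a description.

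The order of the levels, which FPKM allow because they are per length, changed between the groups. By mean FPKM the order in control tumors was Cd4, Cd3g, Gzma, Gzmb, Cd3d, Cd3e, Nkg7 and Cd8a. In Villin-WlscKO tumors it was Gzma, Cd3g, Gzmb, Cd4, Nkg7, Cd3d, Cd3e and Cd8a. Only 1 pair of neighbours kept its order in all 5 tumors of a group, Cd3g above Gzmb in Villin-WlscKO tumors. Gzma lay above Cd3g in 2 of 5 Villin-WlscKO tumors, Cd3e above Cd8a in 2 of 5, and Cd3d above Cd3e in 2 of 5 control tumors, so these neighbours do not differ beyond their spread.

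To set the genes against the leukocytes of each tumor, their FPKM were divided by that of Ptprc (CD45), which all leukocytes carry. Ptprc was at 2.88 to 5.82 FPKM in control tumors and at 4.38 to 9.06 FPKM in Villin-WlscKO tumors, with a log2(FPKM + 1) change of 0.48 that did not pass the test (limma adjusted p = 0.193). It was highest in Villin-WlscKO tumors 2 and 3.

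The summed FPKM of the CD3 chains per Ptprc FPKM was 0.764, 0.732, 0.245, 0.594 and 0.665 in control tumors 1 to 5 and 1.02, 1.46, 1.54, 0.908 and 1.60 in Villin-WlscKO tumors 1 to 5. The groups did not overlap, and the means differed 2.18-fold, compared with 3.42-fold before the division. The summed FPKM of Gzma, Gzmb and Nkg7 per Ptprc FPKM was 1.34, 0.268, 0.288, 0.0989 and 0.204 in control tumors and 1.18, 1.68, 2.01, 1.20 and 3.30 in Villin-WlscKO tumors. Control tumor 1 lay within the Villin-WlscKO range. The means differed 4.25-fold, a log2 ratio of 2.09 that became 3.12 without control tumor 1. Cd8a per Ptprc did not overlap either, at 0.00730 to 0.0360 and 0.0768 to 0.322. Cd4 per Ptprc overlapped, at 0.437 to 1.10 in control and 0.183 to 0.763 in Villin-WlscKO tumors.

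Granule gene FPKM per CD3 chain FPKM overlapped between the groups, at 0.166 to 1.76 in control and 1.15 to 2.06 in Villin-WlscKO tumors. Cd4 FPKM per CD3 chain FPKM was 0.677 to 1.79 in control and 0.201 to 0.745 in Villin-WlscKO tumors, with Villin-WlscKO tumor 1 above control tumors 1 and 2. Cd8a FPKM per CD3 chain FPKM was 0.0269 to 0.0471 in control and 0.0663 to 0.200 in Villin-WlscKO tumors, without overlap. These ratios are given as values with no test.

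**Figure D3:**
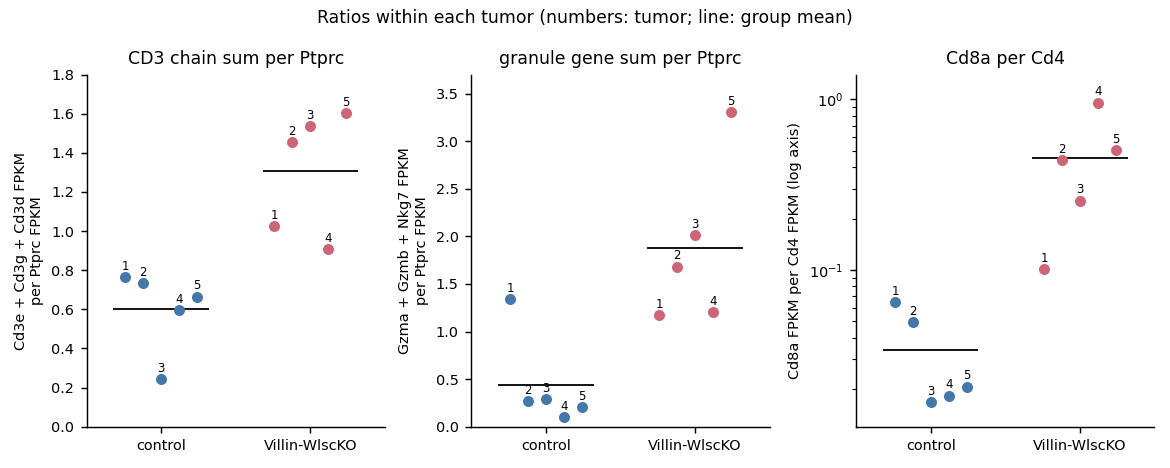
Ratios of FPKM within each tumor for 5 control (blue) and 5 Villin-WlscKO (red) tumors, each point 1 tumor with its number and each line a group mean: the CD3 chain sum per Ptprc, the granule gene sum (Gzma, Gzmb and Nkg7) per Ptprc, and Cd8a per Cd4 on a logarithmic axis. The first and the last do not overlap between the groups, and control tumor 1 at 1.34 lies among the Villin-WlscKO tumors in the granule panel.

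The counts of all lists below stand beside 6.12% of all genes tested higher and 4.75% lower. In the list of constant chains and the zeta chain, 4 of 7 tested names were higher and 0 lower, with a median change of 0.96. Trbc1 and Trbc2, the beta constant regions, share their values with each other and with other names of their locus and count as 1 measurement (log2(FPKM + 1) change 0.96, limma adjusted p = 0.0199). The gamma constant regions Tcrg-C1 (0.58) and Tcrg-C2 (1.00) also rose, and each shares its values with another name. Tcrg-C2 had a control mean of 0.437 FPKM, under 0.5 FPKM, and was tested only through its level in Villin-WlscKO tumors. Trac, the alpha constant region, was at 1.99 to 5.21 FPKM in control and 4.24 to 16.5 FPKM in Villin-WlscKO tumors and did not pass (change 0.96, limma adjusted p = 0.0883). Without Villin-WlscKO tumors 2 and 3, 1 of the 7 names was higher, Tcrg-C2 (limma adjusted p = 0.0251), and the same number was higher without control tumor 2 or without Villin-WlscKO tumor 3 alone.

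Most genes of receptor signalling and of the T cell surface did not pass the test, beside 6.12% of all genes higher and 4.75% lower. Of the names of the signalling, surface and transcription factor lists, 9 of 20, 16 of 20 and 9 of 13 had a row. Among signalling genes 2 of 8 tested were higher and 0 lower: Lat, the adaptor phosphorylated after receptor engagement (1.14), and Vav1, a signalling protein of blood cells (0.49). Lck and Zap70, the kinases that start the signal, had changes of 0.08 and -0.38 and did not pass (limma adjusted p = 0.885 and 0.182). Lck and Vav1 had control means of 6.83 and 6.45 FPKM, above the 1.75 FPKM of Cd3g. Which cells their RNA came from was not tested. Among surface and costimulatory genes 2 of 15 were higher and 0 lower, Cd6 (0.71), a receptor of T cells, and Il2rb (0.96), a chain of the interleukin-2 and interleukin-15 receptors. Both had control means under 0.5 FPKM (0.229 and 0.479 FPKM) and were tested only through their level in Villin-WlscKO tumors. Without Villin-WlscKO tumors 2 and 3, 0 of the 8 signalling genes and 1 of the 15 surface genes, Il2rb, were higher. Leaving out control tumor 2 or Villin-WlscKO tumor 3 alone likewise left 0 of the 8 signalling genes past the threshold, and with single tumors left out between 1 and 3 surface genes were higher. Among T cell transcription factors 1 of 8 passed, Tcf7, which was lower (-1.09, limma adjusted p = 0.00156). Tcf7 encodes a factor of the Wnt pathway that T cells and epithelium both use, and it was at 36.4 to 64.1 FPKM in control tumors, far above the CD3 chains.

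Of 23 names of other cytotoxic effectors and cofactors 16 had a row. Of these, 7 of 15 tested genes were higher and 0 lower, with a median change of 0.58. Ccl5, a chemokine made by cytotoxic lymphocytes and other cells, had the largest change, 3.82 (standard error 0.36, limma adjusted p = 0.000133). It was at 1.87, 0, 0.277, 0.994 and 0.824 FPKM in control tumors 1 to 5 and at 11.3, 35.4, 37.7, 16.8 and 23.5 FPKM in Villin-WlscKO tumors 1 to 5. The groups were far apart, and Villin-WlscKO tumor 1 was the lowest of its group, as for most of the 8 genes. Next in size were Rab27a (1.26), a GTPase of granule docking, Tnfsf10 (1.26), the death ligand TRAIL, Serpinb9 (0.97), an inhibitor of granzyme B, Ctsw (0.97), a cathepsin of cytotoxic lymphocytes, and Unc13d (0.65), which primes granules for release. Ctsw had a control mean of 0.441 FPKM, under 0.5 FPKM, and was tested only through its level in Villin-WlscKO tumors. The control mean of Ccl5 was 0.793 FPKM. Rab27a, Tnfsf10, Serpinb9, Unc13d and Ctsc, which was also higher (0.59), had control means of 4.39, 7.36, 2.70, 7.05 and 45.9 FPKM. These lay above the 1.12 FPKM of Gzma, and which cells their RNA came from was not tested. Without Villin-WlscKO tumors 2 and 3 only Ccl5 of the 15 genes passed (3.38, limma adjusted p = 0.00148). Ifng, the cytokine interferon-gamma, was too low to be tested and was listed at 0 in 4 control tumors and at 0.0584 FPKM in the other one, whereas Villin-WlscKO tumors 1 to 5 had 0.648, 1.35, 0.719, 0.185 and 0.387 FPKM.

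Only 7 of the 19 natural killer receptor names of the list had a row, and Klrb1b and Klrb1c share their values. Tyrobp, 1 of these 7 names, had a control mean of 78.1 FPKM, and which cells its RNA came from was not tested. Of the 7 names 1 was higher and 0 lower, Klrd1 (CD94, change 0.75, limma adjusted p = 0.0167). Its control mean was 0.368 FPKM, under 0.5 FPKM, so it was tested only through its level in Villin-WlscKO tumors. Of the 10 names of the intraepithelial lymphocyte list 4 had a row. Among these 2 of 4 were higher, Itgb7 (1.03), the beta chain of gut-homing integrins, and Cd7 (0.98). Itgae, whose product pairs with that of Itgb7 to hold lymphocytes in the epithelium, had a median of 4.32 FPKM in control and 3.36 FPKM in Villin-WlscKO tumors and did not pass (-0.70, limma adjusted p = 0.273). Without Villin-WlscKO tumors 2 and 3, 0 of the 7 natural killer names and 1 of the 4 intraepithelial genes, Itgb7, were higher.

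**Figure D4:**
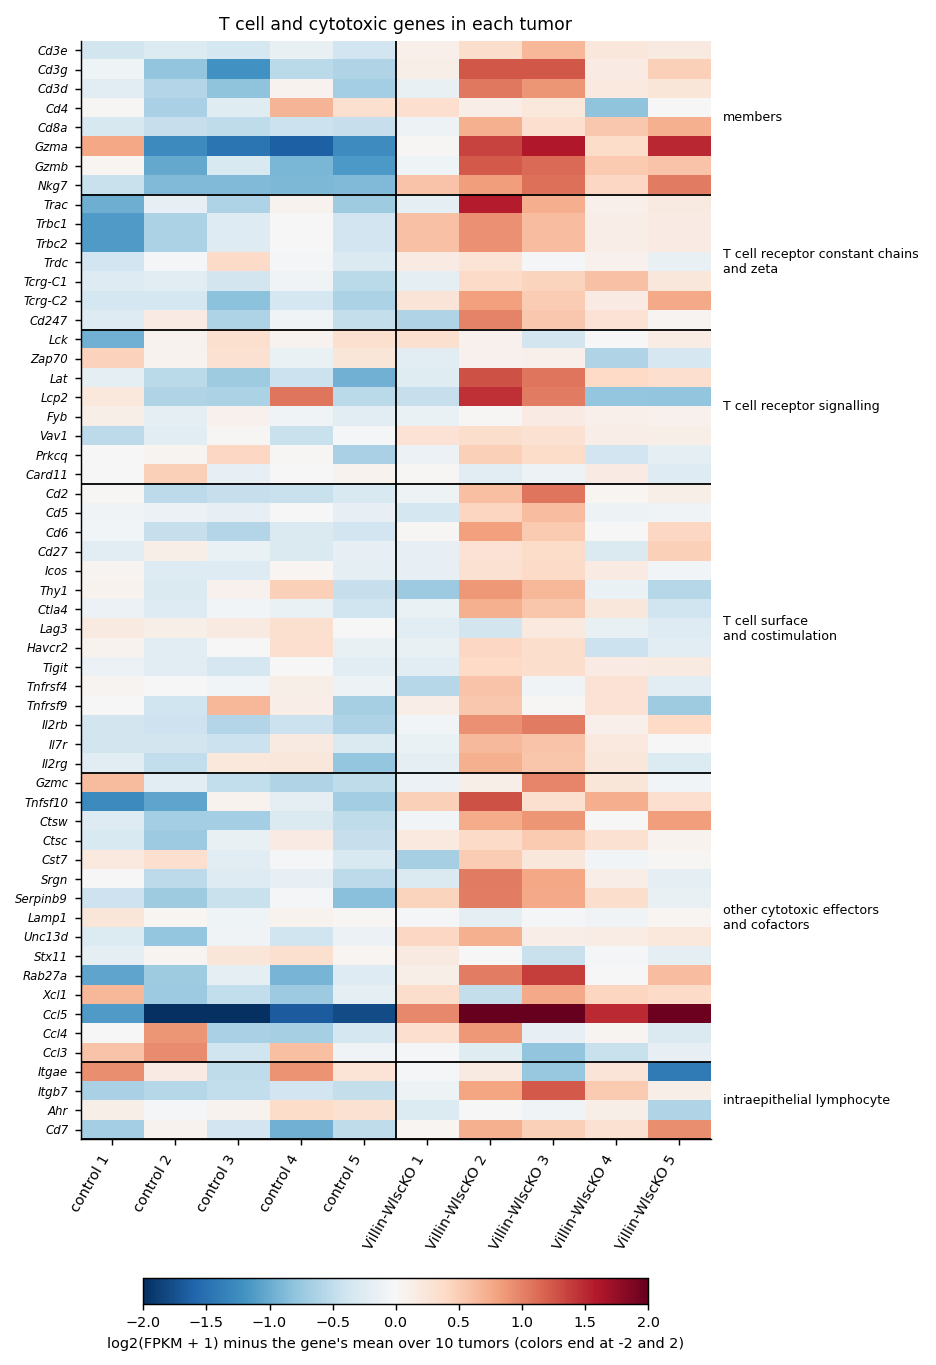
log2(FPKM + 1) minus the mean of each gene over 10 tumors (color, ending at -2 and 2) for the 8 measured genes and the tested genes of 5 related lists, with the control tumors left of the line and the Villin-WlscKO tumors right of it. Ccl5, Nkg7 and Cd8a separate the groups in every tumor, many surface genes are high mainly in Villin-WlscKO tumors 2 and 3, and Cd4 and Lck do not separate the groups.

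Of 6 tested genes among lymphocyte attractants and their receptors, 3 were higher and 0 lower. Cxcl9 and Cxcl10 encode interferon-induced chemokines that draw activated T cells through CXCR3. Cxcl9 ranged from 0.219 to 1.16 FPKM in control tumors and from 12.8 FPKM in tumor 5 to 47.7 FPKM in tumor 2 of the Villin-WlscKO tumors (change 3.90, standard error 0.34, limma adjusted p = 6.67e-05). Cxcl10 changed by 2.73 (standard error 0.33, limma adjusted p = 0.000671). Neither overlapped between the groups, and both passed under every alternative fit. Cxcr6, a receptor on activated and tissue T cells, was the third (0.77, limma adjusted p = 0.0497), and without Villin-WlscKO tumors 2 and 3 it was 0.50 (limma adjusted p = 0.195).

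Marker lists of other cells were measured beside these, again with 6.12% of all genes tested higher and 4.75% lower. Of 13 pan-leukocyte genes 12 had a change above 0, and 1 passed the test as higher, Lcp1 (0.91). The median change of these genes was 0.47. Their summed FPKM ranged from 123 to 198 in control and from 140 to 320 in Villin-WlscKO tumors. Of 8 B and plasma cell genes 8 had a change above 0, and 1 passed the test as higher, Mzb1 (1.68). The median was 0.69, with summed FPKM of 205 to 363 and 272 to 614. Of 12 macrophage and monocyte genes 5 had a change above 0, and 2 passed the test as higher, Ccr2 (1.12) and Cd14 (0.67). The median was -0.01. With single tumors left out the numbers of higher genes ranged from 0 to 1 in the pan-leukocyte list, from 0 to 4 in the B and plasma cell list and from 0 to 2 in the macrophage list. With Villin-WlscKO tumors 2 and 3 left out, 0 genes passed in each of these 3 lists (limma adjusted p = 0.137 for Lcp1, 0.0925 for Mzb1, 0.0981 for Ccr2 and 0.123 for Cd14). The dendritic cell list had a median of -0.21, and 4 of its 6 tested genes had a change below 0, among them Clec9a (-0.56), which shares its values with another name, and Itgax (-0.39), neither of which passed. The 1 gene of this list past the threshold was Bst2 (1.48), which interferon also induces in other cells.

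Of 9 mast cell names 1 was lower, Ms4a2 (-0.90), and the median was -0.15. The 7 tested neutrophil genes had a median change of 0.85, with 6 of 7 above 0, among them S100a8 (1.30) and S100a9 (0.95), neither of which passed. Their summed FPKM ranged from 239 to 799 in control and from 596 to 1250.0 in Villin-WlscKO tumors. The 1 neutrophil gene past the threshold was lower, Mmp9 (-1.53), and with single tumors left out between 0 and 3 were higher. Neither Ms4a2 (limma adjusted p = 0.0915) nor Mmp9 (limma adjusted p = 0.0802) passed without Villin-WlscKO tumors 2 and 3. The tumor epithelium list, with summed FPKM of 6146 to 8689 in control and 7547 to 9683 in Villin-WlscKO tumors, held 1 higher gene of 10, Krt20 (0.91). None of the 10 squamous genes and none of the 7 cell cycle genes passed the test, and the squamous sum ranged from 52.9 to 226 in control and from 19.6 to 1352 in Villin-WlscKO tumors. The part that differing shares of leukocytes, epithelium or squamous tissue had in the changes of the 8 genes was not tested. When Villin-WlscKO tumors 2 and 3, which hold the squamous keratin, were left out, Cd3g, Cd3d, Gzma and Gzmb no longer passed, and Cd3e, Cd8a and Nkg7, which were tested only through their level in Villin-WlscKO tumors, did.

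**Figure D5:**
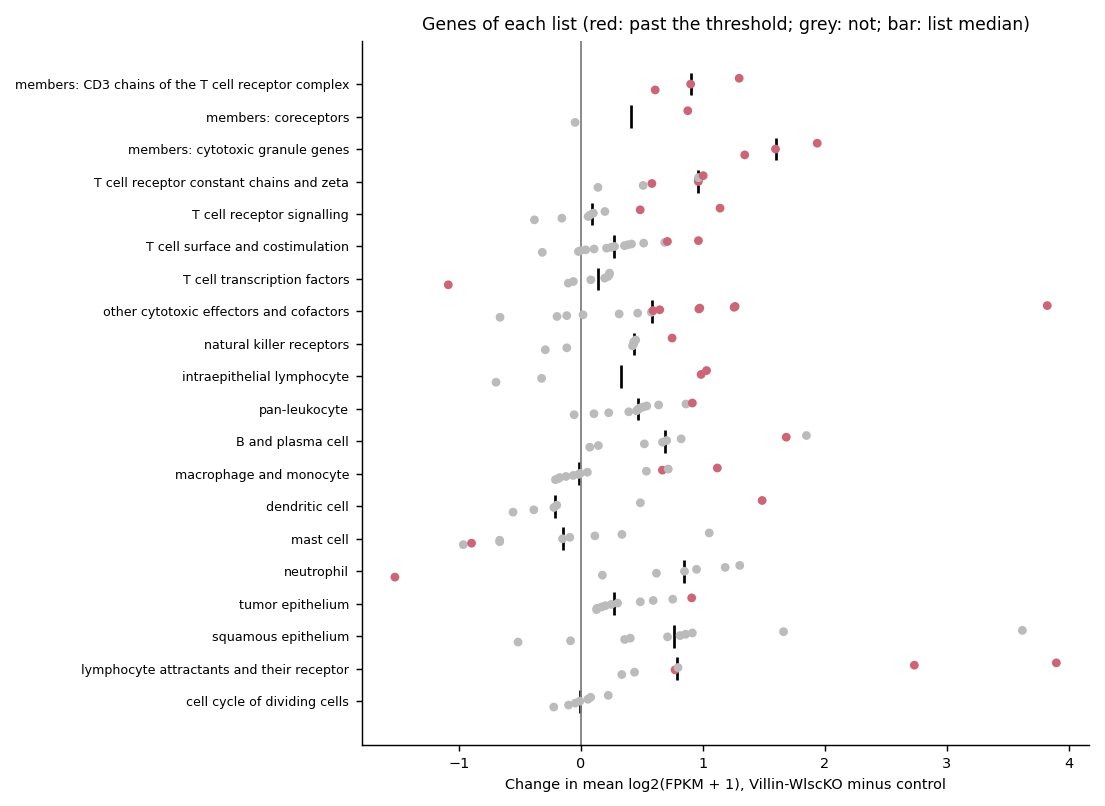
Change in mean log2(FPKM + 1), Villin-WlscKO minus control, of every tested gene of each list (points, red where past the threshold and grey where not) with the list median (bar). The CD3 chains and the granule genes, among the 8 measured genes, are all past the threshold, and Cxcl9 at 3.90 and Ccl5 at 3.82 lie farthest to the right.

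The genes most like the set within groups were sought among 15459 other genes with a mean of at least 1 FPKM, by the Pearson correlation over the 10 tumors after group means had been removed. Closest to the mean of the 3 CD3 chains were 8430419L09Rik, Pltp, Ptafr, Il10ra and Apoe, with r from 0.950 to 0.970, while Ptprc had r = 0.688. With the 2 tumors farthest from the middle left out (Villin-WlscKO tumors 2 and 3) these 5 had r from 0.901 to 0.954. Closest to the mean of Gzma, Gzmb and Nkg7 were Ttc39b, Rpl4, Gm11478, Isyna1 and Gm5835, with r from 0.943 to 0.954, while Ptprc had r = 0.423. Without control tumor 1 and Villin-WlscKO tumor 3, the farthest from the middle, these had r from 0.847 to 0.899. None of the 10 genes passed the test between the groups. These are the highest of 15459 correlations and are given as a description.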

How the data were processed

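Messenger RNA of the 10 tumors had been sequenced from TruSeq stranded libraries. After a quality check in FastQC the authors aligned reads with TopHat 2.1.1 (build GRCm38.p5) and quantified transcripts with Cufflinks 2.2.1 and Cuffdiff. The deposited values are FPKM per gene name and tumor. Of the 16875 names, 2419 shared all values with another name. FPKM summed to between 1207683 and 1533885 per tumor, median FPKM lay between 11.3 and 12.2, and r between tumors between 0.918 and 0.976. Read numbers are not given, so precision rests on the spread between 5 tumors of a group. All 10 columns were assigned by their labels and 0 were left over.

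Package limma 3.58.1 in R 4.3.3 was run on log2(FPKM + 1) with a variance trend for the 16757 names with a mean of at least 0.5 FPKM over the 10 tumors, two-sided, with Benjamini-Hochberg adjustment over all of them and a threshold of 0.05. It was tested on simulated data. Exact permutation tests, ratios, correlations and promoter searches used Python 3.11.15, numpy 2.4.6, pandas 2.3.3 and scipy 1.17.1. Positions are those of GENCODE M21.

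The 10 genes, the lists of related genes and the rules were chosen with earlier results of these data known. Named are all 10 genes, in each list up to 6 genes past the threshold by size of change, the 5 genes most like the CD3 chains and the 5 most like the granule genes, Wls, Xist, Eif2s3y and Krt5. Itgae, Trac, Lck, Zap70, Ptprc and Ifng were named in addition, after their values had been seen. The alternatives were other pseudocounts, scalings, filters and variance models, a replicate block, tumors left out, a stricter threshold and other leukocyte references.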

Additional observations from a re-analysis of the deposited data

Results flagged for a closer look

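Values far from the other 4 of their group were sought by Dixon's ratio among 42 sets of 5 values, for the 8 genes and their sums and ratios, and 5 were found. Chance flags about 1 in 20 such sets, and several of these values come from the same tumor and genes.

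Control tumor 1 stood apart for the granule genes. Its Gzma was 4.61 FPKM, with the next control tumor at 0.377 FPKM, and its Nkg7 was 0.467 FPKM, with the next at 0.0898 FPKM. The granule gene FPKM sum of this tumor was 6.87, with the next at 1.47, and its granule gene sum per Ptprc was 1.34, with the next at 0.288. Its CD3 chain FPKM sum, 3.91, was also the highest of the controls but close to the 3.46 of control tumor 4.

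Villin-WlscKO tumor 5 had a granule gene sum per CD3 chain sum of 2.06, with the next tumor of its group at 1.32.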

How the results depend on the processing

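Against 1822 genes past the threshold in all, 1092 passed without both Villin-WlscKO tumors 2 and 3 and 697 at an adjusted p under 0.01, and between 1231 (without Villin-WlscKO tumor 3) and 1983 (without control tumor 3) with each tumor left out. Of the 8 measured genes, where 7 passed, 3 did without Villin-WlscKO tumors 2 and 3, 4 with a mean FPKM of at least 1 (which leaves 6 to test), 2 at an adjusted p under 0.01, and 5 to 7 with each tumor left out. With a replicate block 3 passed, Cd3e, Cd8a and Nkg7 (1627 of all genes). Cd3g (limma adjusted p = 0.0674), Cd3d (limma adjusted p = 0.117), Gzma (limma adjusted p = 0.0843) and Gzmb (limma adjusted p = 0.0556) did not. The labels do not say whether same-numbered tumors were paired or shared a batch. After removal of group means, same-numbered tumors had r from -0.087 to 0.16. Of 10 tumors, 5 correlated best with their own number among the 5 tumors of the other group. Some such matches arise by chance, and whether 5 of 10 are more than that was not tested. With equal FPKM sums 77.1% of called genes were higher, with quantile normalization 44.3%, against 56.3% as reported. The sign of Cd4 turned with equal FPKM sums (0.023), without control tumor 4 (0.11), without control tumor 5 (0.02), without Villin-WlscKO tumor 4 (0.15) and for the log2 ratio of median FPKM (0.15), with a range from -0.22 to 0.15 when single tumors are left out, and that of the coreceptor sum per Ptprc, a log2 fold of -0.18, without Villin-WlscKO tumors 2 and 3 (0.0085) and without control tumor 5 (0.048), with a range from -0.37 to 0.048 when single tumors are left out. The other 7 genes kept their direction in all alternatives. Their limma adjusted p ranged from 0.00707 to 0.0448 for Cd3e, 0.00918 to 0.0674 for Cd3g, 0.0298 to 0.179 for Cd3d, 0.00122 to 0.0333 for Cd8a, 0.00276 to 0.146 for Gzma, 0.00993 to 0.0935 for Gzmb and 9.37e-05 to 0.00513 for Nkg7. Of 30 called genes of the other lists, 14 passed with each tumor left out, 9 under every alternative (Tcrg-C2, Il2rb, Tcf7, Ccl5, Itgb7, Bst2, Krt20, Cxcl9 and Cxcl10), and 0 changed sign. Tcrg-C2 and Il2rb, and also the called genes Cd6, Ctsw and Klrd1, had control means under 0.5 FPKM. They were tested only through their level in Villin-WlscKO tumors, so their calls are no independent support. These alternatives for list genes were added after the data had been seen. The cause of a lost call was not tested, also not in the settings with fewer tumors or fewer genes. Read depth is unknown, so the counting error of the lowest values, such as Cd8a in control tumors, could not be estimated.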

Other observations

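Of the genes of the lists that were too low to be tested, Cxcl11, Pdcd1, Ikzf3 and Ifng had all Villin-WlscKO values above all control values. Ptpn22, Mmp8 and Cxcr3 were also too low to be tested, and their groups overlapped. The share of all untested genes without overlap was not determined, and the 5.33% above is of tested genes only. The untested genes were looked at after the values had been seen. Cxcl11, an interferon-induced chemokine of the same family as Cxcl9, was at 0 to 0.0882 FPKM in control tumors and at 0.424 to 1.08 FPKM in Villin-WlscKO tumors. Pdcd1, the checkpoint receptor PD-1, was at 0.106 to 0.335 and 0.453 to 1.12 FPKM, and Ikzf3, a lymphocyte transcription factor, at 0.112 to 0.502 and 0.514 to 1.03 FPKM. Other checkpoint genes did not pass the test. Lag3 changed by -0.32 (limma adjusted p = 0.146) and Havcr2 by -0.02 (limma adjusted p = 0.964). Ctla4 changed by 0.38 (limma adjusted p = 0.279) and Tigit by 0.36 (limma adjusted p = 0.132).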
